A study of Rattus norvegicus with 36 samples.

Results

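The genes described here encode the constitutive subunits of the proteasome. They were all genes of the rat array whose platform symbol was Psma, Psmb, Psmc or Psmd followed by a number, without the immune subunits Psmb8, Psmb9 and Psmb10. The rule gave 33 of the 14217 genes that had a probe set with 1 symbol. Of these, 13 encode the core particle (7 Psma, 6 Psmb) and 20 carry the regulatory names Psmc and Psmd (6 and 14). Where a gene had several probe sets, the brightest on average was used. Psmb6, the third constitutive catalytic subunit, was matched only by a probe set shared with another symbol and was not a member, so 2 catalytic subunits had a probe set of their own.

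Rat granulosa cells, the somatic cells that surround the oocyte in the follicle and make estradiol from androgen, came by needle puncture from the ovaries of Sprague-Dawley females aged 21 to 27 days and were plated for 24 h with 5% serum. All groups then spent 48 h without serum but with androstenedione, which aromatase converts to estrogen (0.1 µM in the series' design text; the sample descriptions print the same figure in M). HPTE, the estrogenic hydroxylated metabolite of the pesticide methoxychlor, was given at 0, 1, 5 or 10 µM to cells with no stimulus (basal), with 3 ng/ml FSH, the pituitary hormone that drives follicle growth, or with 1 mM cAMP, the second messenger of FSH. This made 12 groups of 3 arrays, 36 in all. Whether triplicates were separate animals, cell pools or wells is not stated, so p-values below measure only the spread between these samples, which may be technical. The design asks whether HPTE changes gene expression in resting and in stimulated cells, and the proteasome genes are read here against that question.

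The proteasome is the large protease that degrades proteins tagged with ubiquitin. Its core particle is a barrel of stacked rings: alpha subunits (Psma) form the outer rings and gate the entrance, and beta subunits (Psmb) form the inner rings, of which Psmb5, Psmb6 and Psmb7 carry the active sites. The regulatory particle caps the core. Its base holds a ring of ATPases (Psmc) that unfold substrates and ubiquitin receptors such as Psmd4, and its lid holds scaffold subunits and the deubiquitinase Psmd14. Psmd5, Psmd9 and Psmd10 are chaperones that help to assemble the base and are not subunits of the finished particle. In many cells the subunit genes are transcribed in a coordinated way through antioxidant response element sites bound by the Nfe2l1 factor with small Maf partners, and through CCAAT boxes bound by the Nfy complex. In the ovary, the proteasome is known for its part in oocyte maturation and in the turnover of regulatory proteins in follicle cells.

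Promoter windows of 300 bases, from 250 before to 50 after the annotated start, were matched in RefSeq (GRCr8) for 29 of the 33 genes. Psma7, Psmd6, Psmd12 and Psmd14 were not matched. The motifs searched on both strands were TGACNNNGC or TGAGNNNGC, the core letters of the antioxidant response element, and CCAAT; matches of both motifs may overlap. The response element letters were found in 13 of 29 windows (44.8%), against 27.1% of 27457 promoter windows of the same length, and CCAAT in 16 of 29 (55.2%), against 37.7%. Core genes held the response element letters in 6 of 12 windows and CCAAT in 9 of 12, and regulatory genes held each in 7 of 17. There were 7 windows with both and 7 with neither. A match is a run of letters and not a shown binding site. The windows of the 3 matched genes whose expression results are discussed most, Psma3, Psmd8 and Psmd5, and of the catalytic subunit Psmb5 are given below, 5′ to 3′ on the strand of the gene, with matches in capitals (the reverse complement reads GCNNNGTCA or GCNNNCTCA, and ATTGG).
Psma3: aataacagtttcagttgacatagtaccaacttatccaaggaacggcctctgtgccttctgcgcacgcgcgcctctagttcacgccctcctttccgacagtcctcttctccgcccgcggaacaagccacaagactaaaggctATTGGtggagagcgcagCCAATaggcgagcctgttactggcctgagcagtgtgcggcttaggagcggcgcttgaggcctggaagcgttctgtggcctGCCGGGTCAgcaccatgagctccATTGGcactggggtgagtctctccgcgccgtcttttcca
Psmd8: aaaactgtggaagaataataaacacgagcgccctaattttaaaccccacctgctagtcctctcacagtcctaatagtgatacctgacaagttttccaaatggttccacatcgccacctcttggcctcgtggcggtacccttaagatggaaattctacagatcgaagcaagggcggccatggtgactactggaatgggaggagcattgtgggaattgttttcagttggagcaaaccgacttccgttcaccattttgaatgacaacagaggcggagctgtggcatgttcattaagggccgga
Psmd5: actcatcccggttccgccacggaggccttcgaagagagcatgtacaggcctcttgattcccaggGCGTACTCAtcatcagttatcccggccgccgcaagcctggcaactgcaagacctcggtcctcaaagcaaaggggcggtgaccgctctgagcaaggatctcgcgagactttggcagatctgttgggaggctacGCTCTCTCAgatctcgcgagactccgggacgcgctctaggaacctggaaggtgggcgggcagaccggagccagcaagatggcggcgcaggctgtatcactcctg
Psmb5: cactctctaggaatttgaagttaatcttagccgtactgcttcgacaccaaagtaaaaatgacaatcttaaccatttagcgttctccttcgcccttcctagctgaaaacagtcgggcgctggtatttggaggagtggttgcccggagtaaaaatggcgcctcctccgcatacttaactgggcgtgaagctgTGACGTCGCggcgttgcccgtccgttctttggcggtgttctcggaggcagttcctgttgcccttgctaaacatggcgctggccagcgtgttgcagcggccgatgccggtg
Psma3 (chr6:95219499-95219798, plus strand) had 1 response element match, whose first base lies 12 bases before the start, and 3 CCAAT matches. Psmd8 (chr1:93608640-93608939, minus strand) had no match of either motif. Psmd5 (chr3:38548441-38548740, minus strand) had 2 response element matches, 186 and 54 bases before the start. Psmb5 (chr15:32047330-32047629, minus strand) had 1, 60 bases before the start. Psmb2, whose window is not printed, had the most response element matches, 4.

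The proteasome genes were expressed in every group and their group means lay close together. Mean log2 intensity over the 36 arrays ran from 7.59 for the lid subunit Psmd3 to 12.57 for the beta subunit Psmb4. These are intensities of different probe sets and were not compared between genes. The range from the lowest to the highest of the 12 group means had a median of 0.29 log2 units (1.22-fold) over the 33 genes, against 0.47 (1.38-fold) over all 14217 genes. It was 0.28 for core and 0.30 for regulatory genes. Of the 33 genes, 31 (93.9%) stayed under 1.5-fold, against 64.6% of all genes and 54.7% of the 6050 genes whose mean was at or above that of the dimmest proteasome gene. The narrowest range was that of the lid subunit Psmd6, 0.16 (1.11-fold), from 10.47 with 10 µM HPTE alone to 10.62 with FSH alone. The alpha subunit Psma3 had a range of 0.60 (1.52-fold), from 9.44 in basal cells with 1 µM HPTE to 10.05 with FSH alone. The lid subunit Psmd8 had 1.16 (2.24-fold), from 8.04 with cAMP alone to 9.20 in untreated basal cells, and was the 1 member past 2-fold. A lower value on an array of bulk RNA may mean fewer cells of a type or less RNA per cell, and these cannot be told apart.

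**Figure D1:**
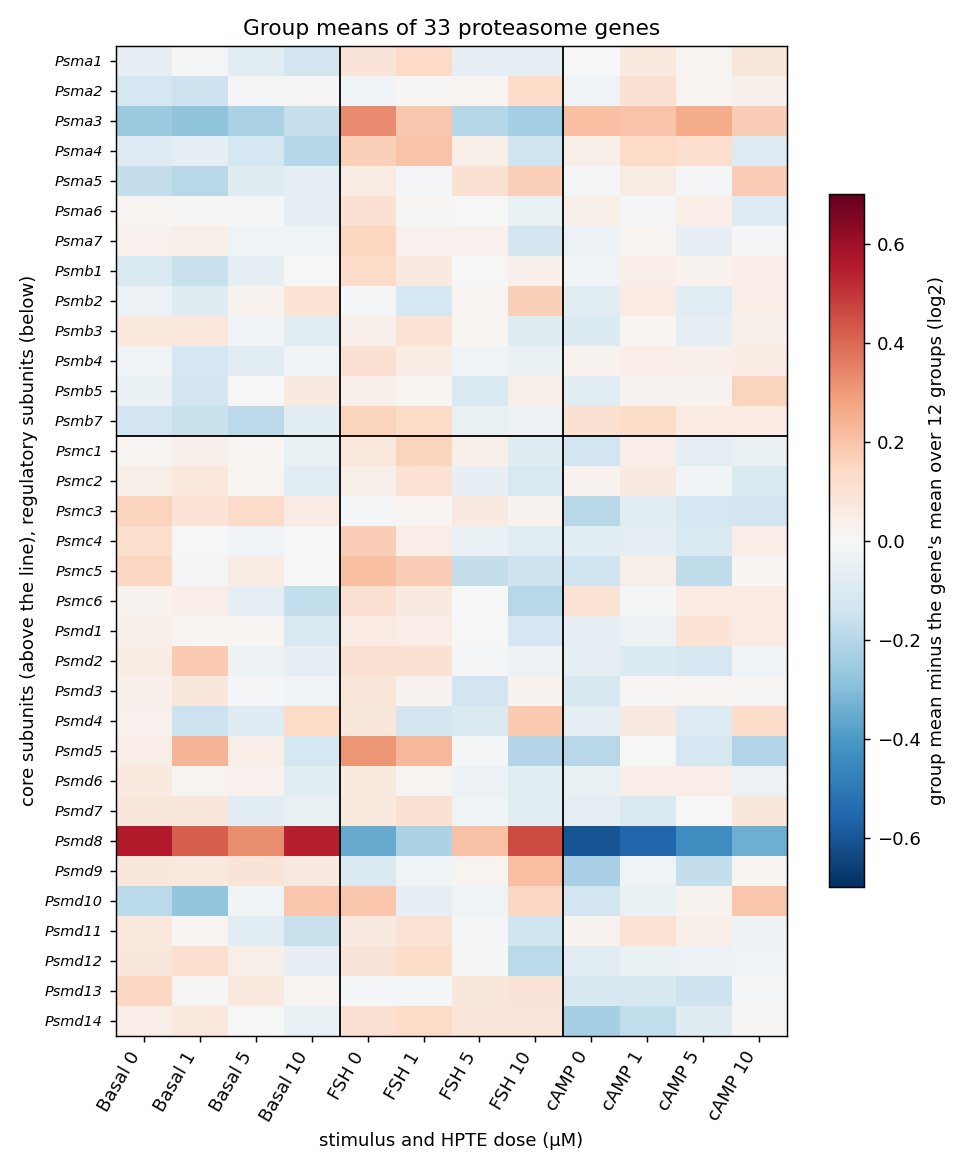
Group means of the 33 genes (rows: core above the line, regulatory below it) in the 12 groups (columns: stimulus and HPTE dose in µM), each as the difference in log2 intensity from the gene's mean over the 12 group means; n = 3 arrays a group. Most cells are pale; Psmd8 is high in the basal groups and low in the cAMP groups, and Psma3 runs the other way.

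Most of the spread of these genes lay between arrays of the same group and not between groups. The arrays numbered 3 in the labels stood apart from those numbered 1 and 2 in all 12 groups. Gapdh control probe sets at the 3′ and 5′ ends of the transcript had a log2 ratio (3′ over 5′), a measure of how complete the labelled RNA is, of 0.767 to 1.07 on number 3, against 1.61 to 2.40 on the arrays numbered 1 and 2. Core genes read higher on number 3 than on the mean of numbers 1 and 2, by a median of 0.74 log2 units, and 10 of 13 were higher in all 12 groups. Regulatory genes had a median of 0.21 and 6 of 20 higher in all 12 groups, and all genes a median of -0.05. Psmd8 stood out with 1.82 (1.23 to 2.08 over the groups), followed by Psmb2 with 1.54, Psma5 with 1.46, Psmd4 with 1.37, Psmc3 with 1.29 and Psma2 with 1.24. The lid subunit Psmd12 read lower on number 3 in every group, by a mean of -0.75, as did the ATPase Psmc6, by -0.43. Array number accounted for a median of 66.2% of the sum of squares of the 33 genes and group for 13.3%, while over all genes the medians were 17.7% and 33.1%. In core genes the medians were 89.9% and 4.01%, and in regulatory genes 52.3% and 17.0%. Number outweighed group in 27 of the 33 genes (81.8%), against 33.7% of all genes. What the number stands for is not given in the labels, and its part in these shifts was not tested beyond these values.

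**Figure D2:**
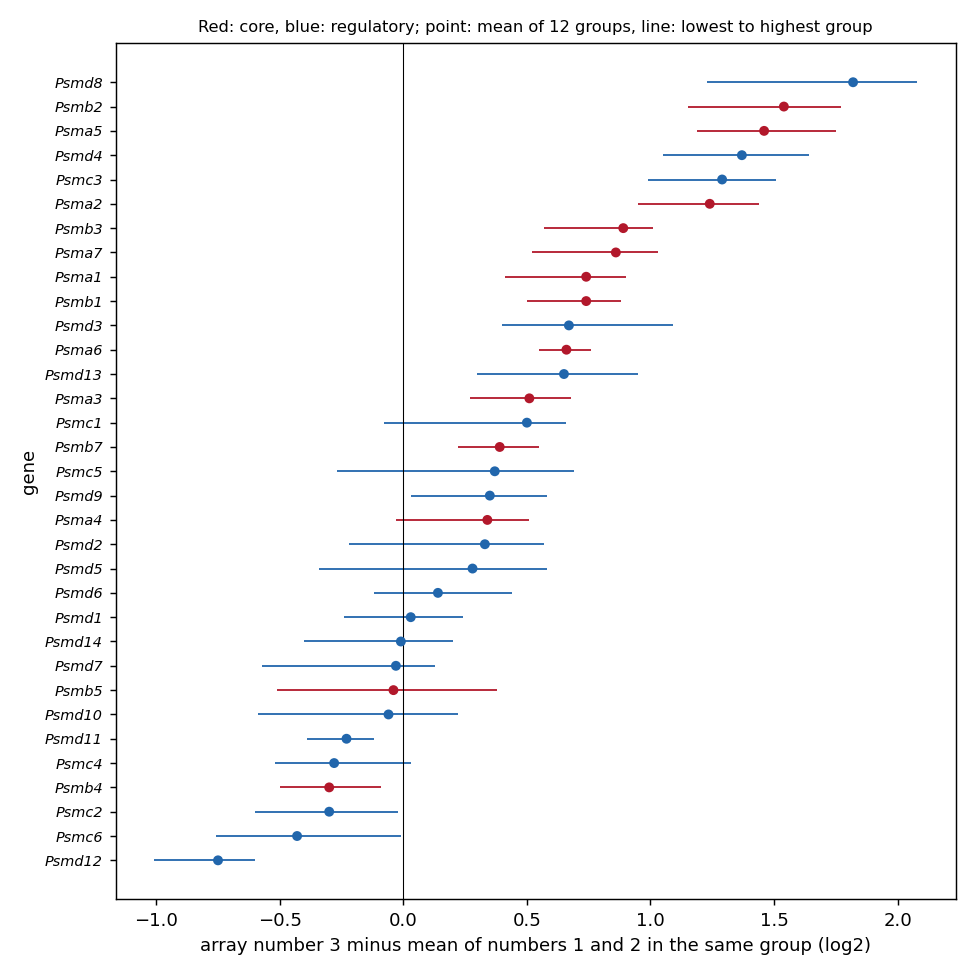
Difference in log2 intensity between array number 3 and the mean of numbers 1 and 2 of the same group, for each of the 33 genes. Points are means of the 12 groups, lines run from the lowest to the highest group, red marks core and blue regulatory genes. Psmd8, at 1.82, is farthest to the right and Psmd12, at -0.75, farthest to the left.

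**Figure D3:**
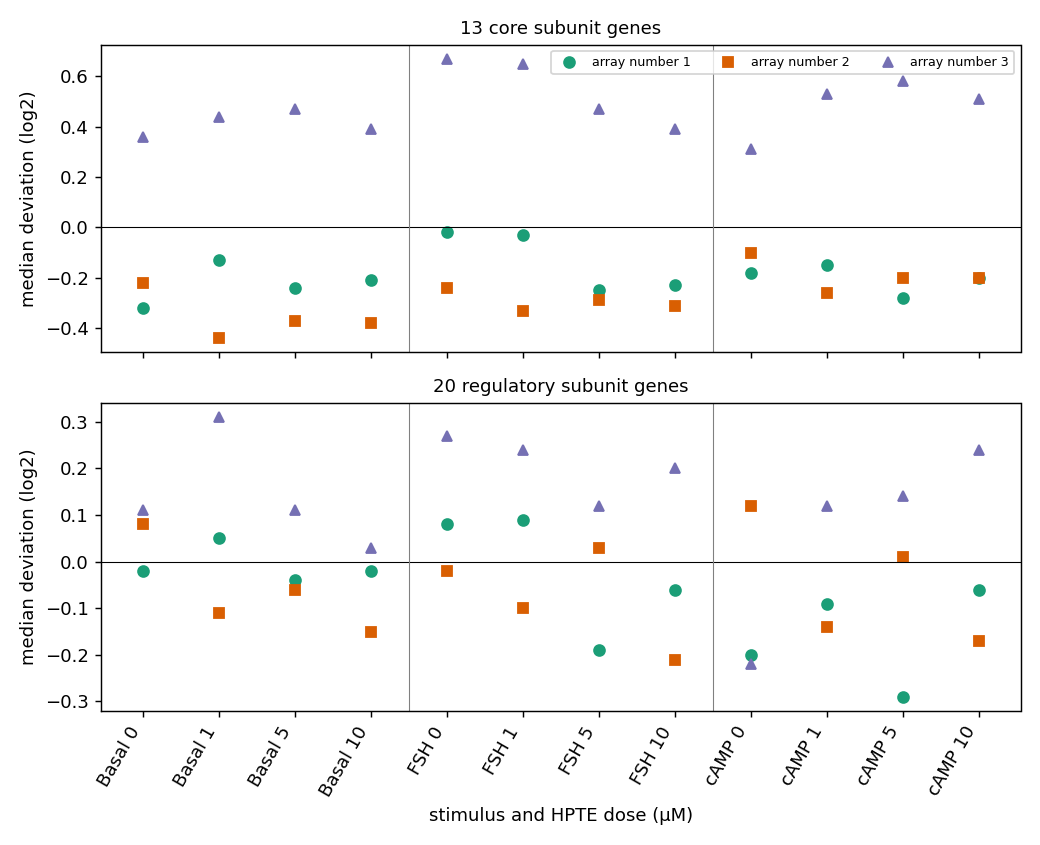
Median deviation of the 13 core genes (top) and the 20 regulatory genes (bottom) on each of the 36 arrays, in log2 units from each gene's mean, by group and array number. In the core panel every array numbered 3 lies above the arrays numbered 1 and 2 of its group; in the regulatory panel, that of cAMP without HPTE does not.

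Because of this, every comparison is given in both of 2 forms. The first fit has 1 mean per group, and the second adds the array number as a term (a block). Deviations from the group means correlated over 0.1 for every same-numbered pair of samples in 18 of the 21 comparisons. They did not in FSH against cAMP without HPTE or in the interactions of cAMP cells with basal and with FSH cells. The block fit is printed for these too. This check cannot show that same-numbered arrays are pairs. The shift of number 3 alone can make numbers 1 and 2 deviate alike in every group. In some members the order of arrays 1 and 2 turned with the dose. In basal cells at 0, 1, 5 and 10 µM HPTE, Psmc3 read 9.17, 9.50, 9.04 and 9.37 on array 1. On array 2 it read 9.32, 8.77, 9.21 and 8.96. It turned alike with FSH and with cAMP, while Psmc2 kept its order in basal cells. Calls of the block fit rest on this pairing by label. A gene is called where limma's adjusted p (Benjamini-Hochberg over all 31042 probe sets, two-sided) is under 0.05. Differences are log2 with their standard error, n = 3 arrays a group unless stated. With group means alone, 0 of the 33 genes were called by limma in any of the 21 comparisons, with 0 to 3 at an unadjusted p under 0.05. The block fit called 1 to 4 genes in 9 of the comparisons and none in the other 12.

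FSH alone raised Psma3 and lowered Psmd8 in the block fit, and no other proteasome gene was called. These were 2 of 33, where 16.1% of all probe sets were called (group means alone: none of 33, against 8.06%). cAMP alone gave the same 2 genes the same directions, 2 of 33 against 15.2% (none against 7.18%). The comparisons share the untreated basal arrays, so the likeness is not independent evidence. Core genes were higher with FSH in 12 of 13 cases, with a median difference of 0.13, and regulatory genes in 14 of 20, with 0.04; 50.0% of all genes were higher. With cAMP, 9 of 13 core genes (median 0.06) but 2 of 20 regulatory genes (median -0.15) were higher, where 54.1% of all genes were.

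Psma3 encodes an alpha ring subunit. On arrays 1, 2 and 3, its log2 intensity was 9.29, 9.19 and 9.91 in untreated basal cells and 10.03, 9.61 and 10.50 with FSH. With cAMP it was 9.72, 9.96 and 10.11. The ranges of the groups overlapped, because basal array 3 lay above the lower stimulated arrays, but each stimulated array lay above the basal array of its own number. Such agreement of all 3 pairs is common. Over all genes, 26.6% were higher and 25.4% lower in all 3 pairs with FSH, and 20.8% and 21.3% with cAMP. The difference was 0.58 ± 0.13 with FSH (adjusted p = 0.00115 by limma with the block, 0.242 without) and 0.47 ± 0.13 with cAMP (0.00914 with, 0.429 without). The FSH call held in 6 of 6 fits with the block that left out 1 array (adjusted p up to 0.0137). The cAMP call held in 4 of 6. It was lost without cAMP array 2 (0.32, adjusted p = 0.0973) and without basal array 1 (0.43, adjusted p = 0.0526). Among the theca and stroma markers, Cyp17a1, the androgen-making enzyme of theca cells, was called higher with FSH by both fits, and Col1a1 lower with cAMP by the block fit. The summed intensity of the 5 markers of that list was 1420 to 2230 in untreated basal cells, 1010 to 1670 with FSH and 881 to 2010 with cAMP. No other marker of that list was called in either comparison, and the part of such cells in the result was not tested.

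Psmd8 encodes a lid subunit. Its log2 intensity was 8.23, 8.84 and 10.53 in untreated basal cells, 7.40, 7.84 and 9.63 with FSH, and 7.35, 7.91 and 8.86 with cAMP. Array 3 was the highest in each group, so the groups overlapped, while each stimulated array lay below the basal array of its number. Psmd8 fell by 0.91 with FSH (SE 0.19, adjusted p = 0.000845 by limma with the block, 0.796 without). With cAMP it fell by 1.16 (SE 0.19, adjusted p = 4.63e-05 with, 0.608 without). Both calls held in 6 of 6 fits that left out 1 array. In the block fit the leukocyte marker Cd14 was called in the same directions as Psmd8 in both comparisons. The summed intensity of the 5 leukocyte markers measured, Cd14 among them, was 454 to 834 in untreated basal cells, 270 to 435 with FSH and 271 to 357 with cAMP. Cd68, another leukocyte marker, was also called lower with cAMP in that fit, but not with FSH. Ptprc, Csf1r and Cd3e were called in neither comparison. Of that list Ptprc, Csf1r and Cd3e had medians of 5.11, 4.88 and 4.99 log2 units over the 36 arrays, and Cd68 and Cd14 had 6.78 and 7.82. The part of other cells in the result was not tested.

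Of the other alpha ring genes, Psma4 differed by 0.25 with FSH (adjusted p = 0.13 by limma with the block) and Psma1, Psma2, Psma5, Psma6 and Psma7 by 0.09 to 0.22. Their differences with cAMP ran from -0.07 for Psma7 to 0.14 for Psma5. None was called.

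With all arrays, neither catalytic subunit was called in any comparison by either fit. Psmb5, the chymotrypsin-like subunit, read 10.79, 10.99 and 10.68 in untreated basal cells, 10.93, 10.80 and 10.98 with FSH, and 10.71, 11.06 and 10.60 with cAMP. These groups overlapped, and array 3 was not consistently the highest. Its difference was 0.08 with FSH (95% interval -0.26 to 0.43, limma with the block) and -0.03 with cAMP (-0.37 to 0.32), so a 2-fold change lay outside both intervals. Psmb7, the trypsin-like subunit, read 11.22, 11.33 and 11.68 in untreated basal cells and 11.72, 11.39 and 11.99 with FSH. With cAMP it read 11.69, 11.48 and 11.80. Each stimulated array lay above the basal array of its number, yet the adjusted p was 0.0626 with FSH (difference 0.29) and 0.133 with cAMP (0.24), by limma with the block. The structural beta subunits Psmb1, Psmb2, Psmb3 and Psmb4 differed by -0.05 to 0.24 with FSH and by -0.17 to 0.08 with cAMP, none called.

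The base ATPases, Psmc1 to Psmc6, differed from untreated basal cells by -0.18 (Psmc3) to 0.08 (Psmc6) with FSH and by -0.36 (Psmc3) to 0.07 (Psmc6) with cAMP. No ATPase was called in either fit. Among the non-ATPase base subunits, the scaffold subunits Psmd1 and Psmd2 differed by 0.03 and 0.05 with FSH. The ubiquitin receptor Psmd4 read 7.93, 8.34 and 9.37 in untreated basal cells, 7.92, 8.27 and 9.60 with FSH, and 8.07, 8.14 and 9.15 with cAMP. Array 3 was the highest in each group, and the groups overlapped. The difference of Psmd4 was 0.05 with FSH (-0.30 to 0.40) and -0.09 with cAMP (-0.45 to 0.26), by limma with the block.

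The deubiquitinase Psmd14, which removes ubiquitin as the substrate enters, read 9.04, 9.09 and 8.99 in untreated basal cells and 9.16, 8.96 and 9.19 with FSH. With cAMP it read 8.56, 9.22 and 8.49. Here array 2 of the cAMP group stood above all 3 basal arrays and arrays 1 and 3 below them. The difference of cAMP from basal was -0.28 ± 0.13 (adjusted p = 0.286 by limma without the block, 0.183 with it). Array 2 of that group is taken up again below.

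**Figure D4:**
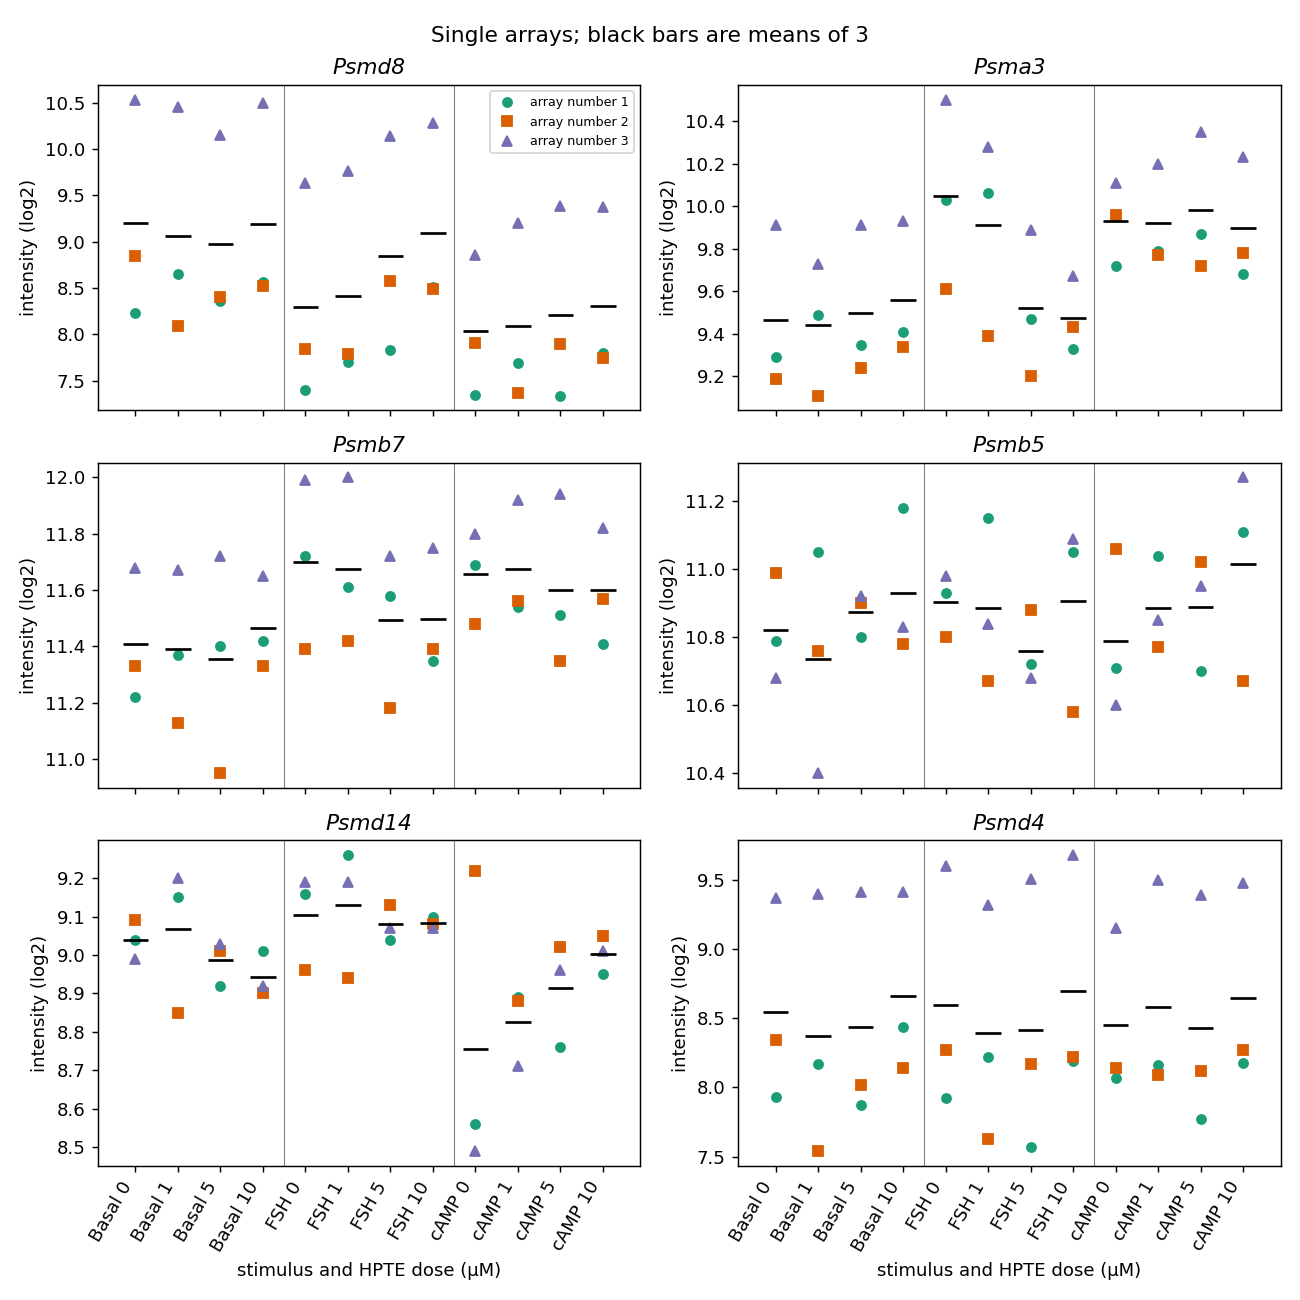
Log2 intensity of Psmd8, Psma3, Psmb7, Psmb5, Psmd14 and Psmd4 on every array, by stimulus and HPTE dose; symbols mark the array number and black bars the mean of 3. Array number 3 is the highest in every group for Psmd8 and Psmd4 but not for Psmb5, and Psmd14 spans 8.49 to 9.22 in cAMP cells without HPTE.

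With 10 µM HPTE the block fit called 4 proteasome genes in FSH cells and none in basal or cAMP cells. A gene that was not called may still have changed. Of the 4, only Psma3 was also called in the interaction with basal cells with all arrays. FSH alone against basal cells, HPTE in FSH cells and their interaction all use the arrays of FSH alone. For any gene, a change with FSH and its reversal with HPTE are therefore not independent evidence. In FSH cells Psma3, Psma7 and Psmd5 fell and Psmd8 rose, 4 of 33 against 17.2% of all probe sets called (group means alone: none, against 8.45%). In basal cells none of 33 was called against 3.41% (1.02% with group means alone), and 2 had an unadjusted p under 0.05. In cAMP cells none was called against 5.83% (1.69%), and 1 had an unadjusted p under 0.05. Core genes had a median difference of -0.15 in FSH cells and regulatory genes also -0.15, with 9 of 33 higher, where the median of all genes was -0.02 and 47.2% were higher. The medians over the 33 genes were -0.09 in basal cells and 0.08 in cAMP cells. In the block fit, 32 of 33 intervals lay within 2-fold in FSH cells, and 33 of 33 in basal and in cAMP cells. With group means alone, 25 of 33 did in FSH cells and 27 of 33 in basal and in cAMP cells.

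Psma3 in FSH cells with 10 µM HPTE read 9.33, 9.43 and 9.67, against 10.03, 9.61 and 10.50 without HPTE. Array 3 with HPTE lay above array 2 without it, so the groups overlapped, but each array lay below its partner. Over all genes, 23.9% were lower and 20.3% higher in all 3 pairs of this comparison. Psma3 fell by 0.57 (SE 0.13, adjusted p = 0.00143 by limma with the block, 0.251 without), and the call held in 6 of 6 fits that left out 1 array. In basal cells the difference was 0.10 (-0.16 to 0.36) and in cAMP cells -0.04 (-0.30 to 0.22). The HPTE effect in FSH cells minus that in basal cells was -0.67 ± 0.18 (adjusted p = 0.018 by limma with the block). That was 1 gene of 33 against 6.77% of probe sets (group means alone: none, 2.17%). The call held in 9 of 12 fits that left out 1 array. It was lost without array 1 of untreated basal cells, array 3 of FSH alone or array 3 of FSH with 10 µM, where the adjusted p was highest at 0.069. Cyp17a1, and no other theca or stroma marker, was called lower with 10 µM HPTE in FSH cells by both fits. The summed theca and stroma markers were 691 to 1590 there against 1010 to 1670 without HPTE. With FSH and 10 µM HPTE, the mean of Psma3, 9.48, was near the 9.56 of basal cells at the same dose.

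Psmd8 in FSH cells with 10 µM HPTE read 8.51, 8.49 and 10.28, against 7.40, 7.84 and 9.63 without HPTE. Each array lay above its partner. Psmd8 rose by 0.80 ± 0.19 (adjusted p = 0.00277 by limma with the block, 0.808 without), and the call held in 6 of 6 fits. The difference was -0.01 (-0.40 to 0.39) in basal cells and 0.26 (-0.13 to 0.66) in cAMP cells, while the interaction of FSH with basal cells was 0.81 ± 0.27 and was not called with all arrays (adjusted p = 0.0712, limma with the block). In the block fit Cd14 was again called in the same direction as Psmd8 in FSH cells, but no other leukocyte marker was called. The summed leukocyte markers, Cd14 among them, were 515 to 846 with HPTE against 270 to 435 without. The part of other cells was not tested here either.

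Psma7, another alpha ring gene, read 9.19, 9.10 and 9.99 in FSH cells with 10 µM HPTE and 9.51, 9.29 and 10.34 without. The groups overlapped through array 3. Psma7 fell by 0.28 (SE 0.10, adjusted p = 0.0464 by limma with the block). Psmd5, an assembly chaperone, read 7.73, 7.70 and 8.19 against 8.50, 8.06 and 8.58. It fell by 0.51 (SE 0.18, adjusted p = 0.0453, limma with the block). Every array of both genes lay below its partner. Both calls held in 1 of 6 fits that left out 1 array, the one without array 2 of FSH alone; the highest adjusted p was 0.167 for Psma7, without array 3 of FSH cells, and 0.206 for Psmd5, without array 1. Single arrays of Psma3, Psmd8, Psma7 and Psmd5 are given because the block fit called them, a choice made after their values were seen.

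**Figure D5:**
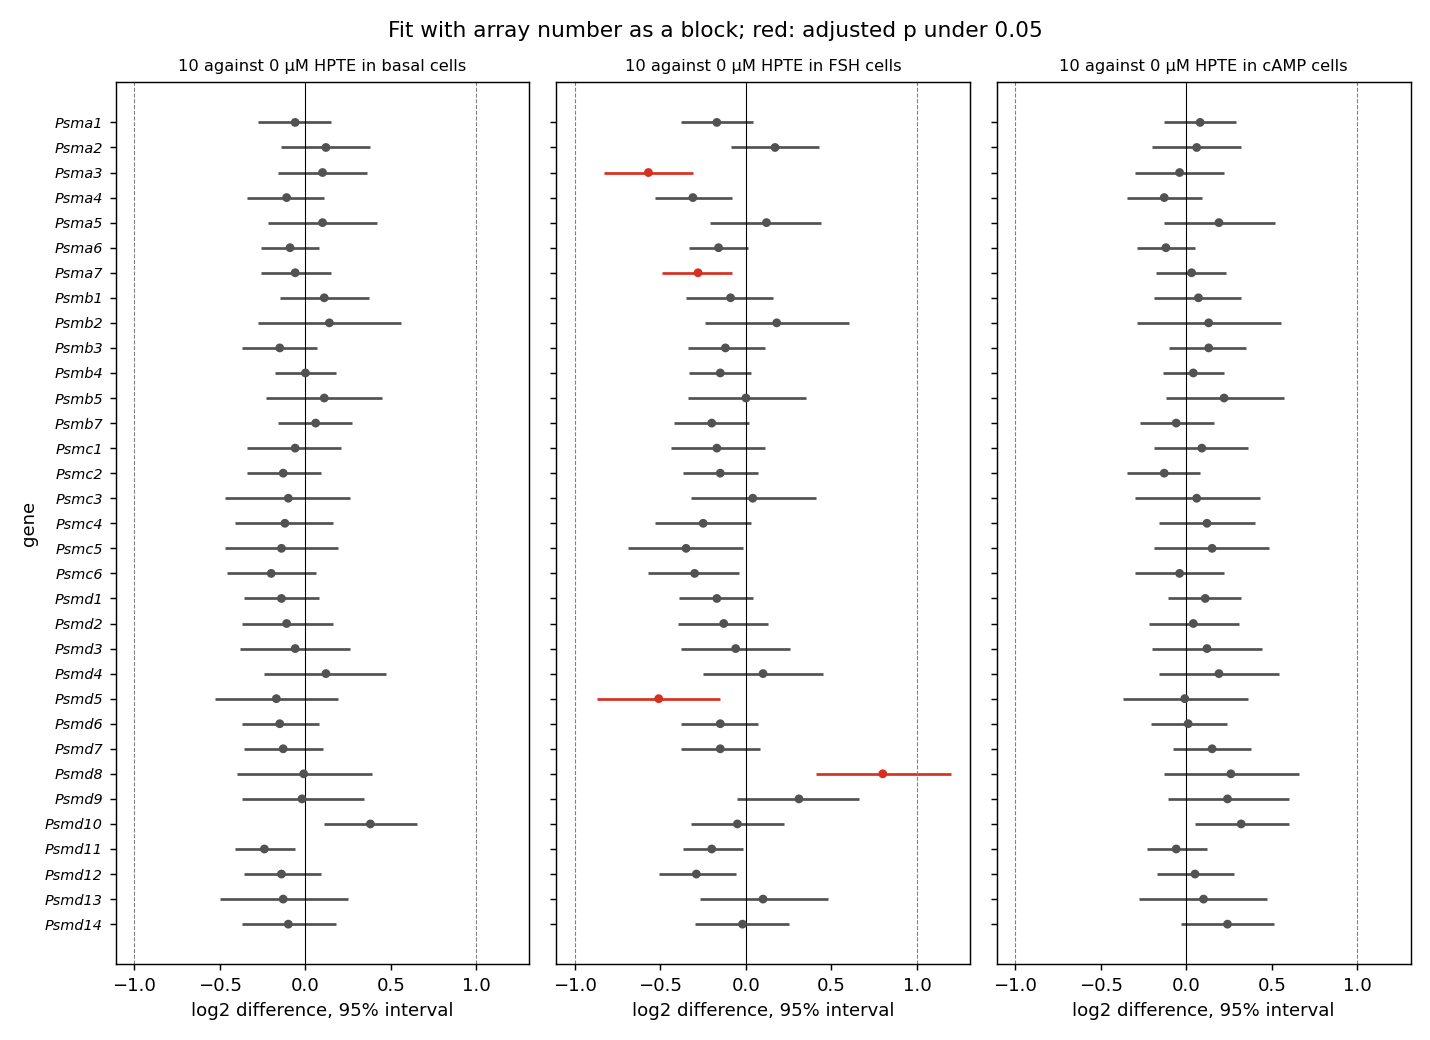
Log2 difference between 10 and 0 µM HPTE with its 95% interval (limma with array number as a block, n = 3 arrays a group) for the 33 genes in basal, FSH and cAMP cells; red marks an adjusted p under 0.05 and dashed lines a 2-fold change. The 4 red genes, Psma3, Psma7, Psmd5 and Psmd8, are all in the FSH panel.

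Among the other genes in FSH cells, Psma4 differed by -0.31 (adjusted p = 0.0533), Psmd12 by -0.29 (0.0757), Psmc6 by -0.30 (0.115) and Psmc5 by -0.35 (0.159) at 10 µM, by limma with the block. Psmb5 read 11.05, 10.58 and 11.09 with 10 µM HPTE and FSH, with a difference of 0.00 (-0.34 to 0.35). Psmb7 read 11.35, 11.39 and 11.75, with a difference of -0.20 (-0.42 to 0.02). Psmd4 read 8.19, 8.22 and 9.68 and differed by 0.10 (-0.25 to 0.45). Psmd14 read 9.10, 9.08 and 9.07, a tight group, and differed by -0.02 (-0.30 to 0.25). So neither the catalytic genes nor the ubiquitin receptor or deubiquitinase genes were called. A 1.5-fold change lay outside the intervals of Psmb5, Psmb7, Psmd4 and Psmd14 in the block fit.

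In basal cells with 10 µM HPTE, Psmb5 read 11.18, 10.78 and 10.83, Psmb7 11.42, 11.33 and 11.65, Psmd4 8.44, 8.14 and 9.41, and Psmd14 9.01, 8.90 and 8.92. Their differences from untreated cells, in that order, were 0.11, 0.06, 0.12 and -0.10. In cAMP cells with 10 µM HPTE, Psmb5 read 11.11, 10.67 and 11.27, Psmb7 11.41, 11.57 and 11.82, Psmd4 8.18, 8.27 and 9.48, and Psmd14 8.95, 9.05 and 9.01. Here the differences were 0.22, -0.06, 0.19 and 0.24. None of these 8 differences was called. The assembly chaperone Psmd10 differed by 0.38 ± 0.13 in basal cells (adjusted p = 0.144, limma with the block), by 0.32 ± 0.13 in cAMP cells (0.187) and by -0.05 ± 0.13 in FSH cells (0.895). It was also 0.38 ± 0.13 higher with FSH alone (0.0515).

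At the lower doses the block fit called fewer genes in FSH cells. Psma3 differed there about as much at 5 µM as at 10 µM (-0.57). HPTE at 5 µM in FSH cells gave 2 calls of 33 in the block fit against 14.3% of probe sets (none with group means alone, against 6.54%). Psma3, at 9.47, 9.20 and 9.89, fell by 0.53 (SE 0.13, adjusted p = 0.00378 by limma with the block), a call that held in 6 of 6 fits with 1 array left out. Psmd8, at 7.83, 8.58 and 10.14, rose by 0.56 ± 0.19 (adjusted p = 0.0476), a call that held in 1 of 6 (without array 1 at 5 µM), with an adjusted p of 0.233 without array 2 at 5 µM. No proteasome gene was called at 5 µM in basal cells (0.116% of probe sets in the block fit, 0.0129% with group means alone) or in cAMP cells (0.0741% and 0.00322%). None was called at 1 µM in basal cells (0.0% in both fits), FSH cells (0.0966% and 0.00644%) or cAMP cells (0.0226% and 0.0%). No member reached an unadjusted p under 0.05 in these 5 comparisons with either fit. Few or no probe sets of the array were called in them, so the absence of calls says little about the proteasome in particular.

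Against basal cells at the same HPTE dose, Psma3 and Psmd8 were the genes called. With FSH at 1 µM HPTE, the block fit called Psma3 (0.47 ± 0.13, adjusted p = 0.017) and Psmd8 (-0.65 ± 0.19, adjusted p = 0.0308), 2 of 33 against 8.02% (none against 3.03% with group means alone, limma). The calls held in 2 of 6 fits (without basal array 1 or FSH array 2) and 1 of 6 (without basal array 2) with 1 array left out; the highest adjusted p was 0.226 for Psma3, without FSH array 1, and 0.213 for Psmd8, without basal array 1. At 5 µM the block fit called none (0.0161% of probe sets, 0.00322% with group means alone), and none at 10 µM (0.00322% and 0.0%); Psma3 with FSH read close to basal cells there.

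With cAMP, Psmd8 was called lower than in basal cells at every dose and Psma3 higher at 1 and 5 µM. At 1 µM HPTE, Psma3 was higher by 0.48 ± 0.13 (adjusted p = 0.00658 by limma with the block) and Psmd8 fell by 0.97 (SE 0.19, adjusted p = 0.000359), 2 of 33 against 17.9% (none against 8.71%). At 5 µM, Psma3 was higher by 0.48 ± 0.13 (0.00665) and Psmd8 fell by 0.77 (SE 0.19, adjusted p = 0.00443, limma with the block), 2 of 33 against 17.0% (none against 8.08%). At 10 µM, Psmd8 fell by 0.89 (SE 0.19, adjusted p = 0.00127, limma with the block), 1 of 33 against 12.8% (none against 6.18%), while Psma3 differed by 0.33 ± 0.13 and was not called (0.0939). These 5 calls held in 6 of 6 fits that left out 1 array. In cAMP cells Psma3 stood at 9.93, 9.92, 9.98 and 9.89 from 0 to 10 µM (SD 0.20 to 0.33), while in FSH cells it stood at 10.05, 9.91, 9.52 and 9.48 (SD 0.18 to 0.46). Psmd8 stood at 8.04, 8.09, 8.21 and 8.30 in cAMP cells and at 8.29, 8.42, 8.85 and 9.10 in FSH cells. Whether the effect of 10 µM HPTE on these genes differs between FSH and cAMP cells was tested as an interaction: it was -0.53 ± 0.18 for Psma3 (adjusted p = 0.0819) and 0.54 ± 0.27 for Psmd8 (0.335) by limma with the block, and neither was called with all arrays. With the block and without the arrays numbered 2 of FSH and of cAMP alone, which read against their labels (below), Psma3 was called in this interaction (-0.76 ± 0.18, adjusted p = 0.0044, limma).

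FSH and cAMP alone were compared directly. With group means 0 of 33 genes and 0.0% of probe sets were called, and the same with the block (0.0%), although 3 and 4 members had an unadjusted p under 0.05. Of the 33 genes, 32 were higher with FSH, with a median of 0.13, where 54.0% of all genes were higher and their median was 0.02. The members vary together over few arrays, so these are not 33 separate results. The median deviation of the regulatory genes was -0.20, 0.12 and -0.22 on the cAMP arrays and 0.08, -0.02 and 0.27 on the FSH arrays. The largest difference was that of Psmd5, 0.50 ± 0.18 with the block. With all arrays, the interaction of 10 µM HPTE called no member in cAMP against basal cells (0.57% of probe sets in the block fit, 0.129% with group means alone) or in FSH against cAMP cells (5.95% and 1.88%). In the latter, 4 members had an unadjusted p under 0.05 with the block and none with group means alone.

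The arrays numbered 2 of FSH alone and of cAMP alone read against their labels. Cyp19a1, the aromatase gene, was 11.49, 7.48 and 11.46 in the FSH arrays and 7.62, 11.01 and 6.46 in the cAMP arrays. Lhcgr, the LH receptor, was 10.27, 5.94 and 11.50 with FSH and 5.66, 10.04 and 5.80 with cAMP. In both genes, the library labelled FSH array 2 resembled the cAMP arrays and the library labelled cAMP array 2 the FSH arrays. The labels were kept, and each result that rests on these libraries was also computed without both of them, which leaves 2 arrays in either group.

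Without them Psmd14 was called in 4 comparisons, which share the 2 remaining arrays of cAMP alone and are not independent evidence. With cAMP it fell by 0.51 against basal cells (SE 0.11, adjusted p = 0.00252, limma without the block), 1 of 33 against 7.31% of probe sets. It was higher with FSH than with cAMP by 0.65 ± 0.12 (adjusted p = 0.00213), 1 of 33 against 2.19%. With 10 µM HPTE in cAMP cells, Psmd14 rose by 0.47 ± 0.11 (adjusted p = 0.0148) and the chaperone Psmd10 by 0.51 ± 0.14 (0.042), 2 of 33 against 2.55%. The interaction of FSH with cAMP cells at 10 µM then called Psmd14 (-0.57 ± 0.15, adjusted p = 0.0354) and the lid subunit Psmd7 (-0.54 ± 0.15, 0.0469), 2 of 33 against 3.62%. All 33 genes were then higher with FSH than with cAMP, with a median of 0.26, against -0.05 over all probe sets. This count rests on 2 arrays in either group and on genes that vary together, so these are not 33 separate results. No share of all genes is given for this fit. The other 2 probe sets of Psmd14 were not called in these 4 comparisons without the block. They differed by -0.29 ± 0.52 and -0.10 ± 0.55 between cAMP and basal cells and by 0.46 ± 0.52 and 0.27 ± 0.55 with 10 µM HPTE in cAMP cells. Between FSH and cAMP they differed by 0.57 ± 0.57 and 0.38 ± 0.60. With the block and without both libraries, the first of them was called with 10 µM HPTE in cAMP cells (0.61 ± 0.16, adjusted p = 0.0141, limma) and between FSH and cAMP (0.57 ± 0.17, adjusted p = 0.0396). It was not called between cAMP and basal cells (-0.44 ± 0.16, 0.0577) or in the interaction (-0.58 ± 0.22, 0.108). The second was called in none of the 4.

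With the block and without these 2 libraries, more genes passed the test. FSH against basal cells called 4 of 33 (16.0% of probe sets), namely Psma3 (0.68 ± 0.13), Psmd8 (-0.97 ± 0.20), Psmd10 (0.42 ± 0.14) and Psmb7 (0.34 ± 0.12). The catalytic gene Psmb7 thus passed here, with an adjusted p of 0.0485 by limma. cAMP against basal cells called 6 (17.3%), all lower with cAMP: Psmd8 (-1.38 ± 0.20), Psmd14 (-0.52 ± 0.11), Psmc5 (-0.50 ± 0.16), Psmc1 (-0.37 ± 0.11), Psmd12 (-0.33 ± 0.10) and Psmd7 (-0.32 ± 0.10). These are base ATPases and lid subunits, and Psma3 was not called (0.33 ± 0.13, adjusted p = 0.0773). HPTE at 10 µM in FSH cells called 6 (16.3%), the 4 named before and also Psma4 (-0.34 ± 0.11) and Psmd12 (-0.35 ± 0.10). FSH against cAMP called 7 (7.91%), all higher with FSH and all regulatory: Psmd5 (0.82 ± 0.19), Psmd14 (0.65 ± 0.12), Psmc5 (0.57 ± 0.18), Psmd10 (0.53 ± 0.15), Psmc1 (0.52 ± 0.12), Psmd12 (0.41 ± 0.11) and Psmd7 (0.38 ± 0.11). At 5 µM in FSH cells the same fit called 2 (14.0%), Psma3 (-0.62 ± 0.13) and Psmd8 (0.62 ± 0.20). With 10 µM HPTE in cAMP cells it called 2 (9.23%), Psmd14 (0.48 ± 0.11) and Psmd10 (0.49 ± 0.14).

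The interactions of 10 µM HPTE also gave more calls in that fit. Between FSH and basal cells it called 2 (8.63%), Psma3 (-0.76 ± 0.17, adjusted p = 0.00327, limma) and Psmd8 (0.87 ± 0.27, adjusted p = 0.0414). Between cAMP and basal cells it called Psmd14 (0.58 ± 0.15, adjusted p = 0.0427), 1 of 33 against 1.7%. Between FSH and cAMP cells it called 8 of 33 against 9.85%, all with a lower effect in FSH cells. These were the alpha ring genes Psma3 and Psma7 (-0.47 ± 0.14), the ATPases Psmc1 (-0.57 ± 0.16) and Psmc5 (-0.73 ± 0.23), the chaperone Psmd5 (-0.82 ± 0.25) and the lid genes Psmd7 (-0.54 ± 0.15), Psmd12 (-0.58 ± 0.14) and Psmd14 (-0.57 ± 0.16).

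The members varied together beyond array number, though loosely. Over the 36 arrays, the median correlation between pairs of core genes was 0.80, and 0.40 once the mean of each array number was taken out. Pairs of regulatory genes had 0.29 and 0.43, and pairs of a core and a regulatory gene 0.33 and 0.28. Psmd5 (median 0.55 with the other members after removal of number means), Psmc4 (0.51) and Psma7 (0.50) were closest to the rest. Psma2 (-0.03), Psma5, Psmb7 and Psmd8 (each 0.07) were farthest, and Psma3 had 0.20. These values describe arrays that share groups, labelling and normalization, and are given with no test.

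Other genes of the pathway were taken from a list of 51 symbols, of which 41 were measured. With group means alone, FSH called 1 higher and 1 lower, cAMP 1 lower, and 10 µM HPTE none in basal cells, 2 higher and 1 lower in FSH cells and 2 higher in cAMP cells. Over all probe sets the shares called were 8.06%, 7.18%, 1.02%, 8.45% and 1.69% in that order. The block fit called 2 higher and 2 lower with FSH, 1 and 5 with cAMP, and with 10 µM HPTE 2 and 1 in basal, 5 and 4 in FSH and 4 and 0 in cAMP cells, where the shares over all probe sets were 16.1%, 15.2%, 3.41%, 17.2% and 5.83%. Neither fit called any of the 4 measured activators and inhibitor or the 4 regulatory-particle proteins with other symbols in these 5 comparisons.

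Of the listed transcription factors of proteasome genes and the genes for processing of Nfe2l1, 10 of 10 were measured. Nfe2l1 itself differed by -0.09 to 0.06 in the same comparisons and was not called. Ddi2, listed for processing of Nfe2l1, rose with FSH in the block fit (0.54, adjusted p = 0.0154 by limma with the block, 0.658 without). Maff, a small Maf protein and partner of Nfe2l1, fell by 1.71 with FSH (SE 0.32, adjusted p = 0.000453, limma with group means). With cAMP it fell by 2.38 (SE 0.32). In FSH cells with 10 µM HPTE it rose by 1.52 ± 0.32 (adjusted p = 0.00168). In the block fit Mafk also fell with cAMP (-0.72) and rose with 10 µM HPTE in FSH cells (0.53, adjusted p = 0.0288), while Nfyb (-0.35) and Nfyc (-0.45), members of the CCAAT-binding complex, fell there.

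Of 5 measured genes known to rise when the proteasome is inhibited, Bag3, a chaperone partner, rose with 10 µM HPTE by 0.84 ± 0.21 in FSH cells (adjusted p = 0.00967, limma with group means) and by 0.93 ± 0.21 in cAMP cells (0.0157). The block fit also called Sqstm1, the autophagy receptor, higher with 10 µM HPTE in all 3 kinds of cell (0.53 basal, 0.41 FSH, 0.88 cAMP) and Zfand2a higher in FSH (0.53) and cAMP cells (0.51). The stimuli alone moved 2 of these genes the other way in that fit: Zfand2a was lower with FSH (-0.46, adjusted p = 0.0241, limma) and cAMP (-0.73, adjusted p = 0.000397), and Bag3 lower with cAMP (-0.64, adjusted p = 0.00383). Zfand2a had a mean of 10.14 log2 units with FSH and 10 µM HPTE, 9.61 with FSH alone and 10.07 in untreated basal cells. Hspa1a, a heat shock protein of the same list, was lower with 10 µM HPTE in basal cells (-0.64, adjusted p = 0.0245 by limma with the block). Its mean in untreated basal cells was 5.94, below the 7.59 of the dimmest proteasome gene. With 10 µM HPTE the block fit thus called 3 of the 5 higher in FSH and in cAMP cells, and Dnajb1 was not among them. These genes are also known to respond to other stresses, and proteasome activity was not measured.

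The ubiquitin shuttle Ubqln2 rose with FSH by 0.40 ± 0.11 (adjusted p = 0.0189, limma with group means) and fell by 0.38 with 10 µM HPTE in FSH cells (SE 0.11, adjusted p = 0.0276). Uba1, the main ubiquitin-activating enzyme, fell there in the block fit (-0.53, adjusted p = 0.00396, limma). The immune core subunit Psmb8 rose with 10 µM HPTE in cAMP cells by 1.03 ± 0.24 (adjusted p = 0.0158, limma with group means), the 1 called gene of the 3 immune subunits. Among assembly factors, Psmg3 rose with 10 µM HPTE in basal cells in the block fit (0.48, adjusted p = 0.0359, limma).

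The cell type was checked against markers. Granulosa markers were measured for 8 of 9 and had medians of 7.16 to 13.83 log2 units over the 36 arrays, with Gja1 and Inhba the highest; Fshr was not among those measured. Theca and stroma markers had medians of 4.94 to 8.69, leukocyte markers 4.88 to 7.82, endothelial 5.01 to 8.87, oocyte 5.00 to 7.94 and surface epithelium 4.51 to 6.95. Among the granulosa markers, 6 of 8 rose with FSH and with cAMP in the block fit, and 5 fell with 10 µM HPTE in FSH cells. Of the other lists, besides the calls of Cd14, Cd68 and Cyp17a1 given above, the block fit called Cd14 higher with 10 µM HPTE in cAMP cells. It called Col1a1 lower with cAMP and with 10 µM HPTE in basal and cAMP cells. In FSH cells with 10 µM HPTE it called the endothelial marker Tek lower and the oocyte marker Gdf9 higher. Their part in the proteasome results was not tested.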

How the data were processed

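RNA from 36 cultures (12 groups of 3) was measured on 1 type of Affymetrix rat genome array after amplification and biotin labelling of 40 ng RNA by the NuGEN Ovation system, per the labels' protocols. The deposited values are one intensity per probe set and array on a linear scale, with array medians of 65.8 to 73.7. The authors had background-corrected, normalized and summarised them: the submitters' processing notes name RMA and the design text names ArrayAssist; no versions are stated there. For arrays, precision is limited by their number.

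Of 31099 probe sets, 57 controls were left out and 31042 tested with no filter on level. Log2 of each intensity was fitted in R 4.3.3 with limma 3.58.1 (lmFit, contrasts.fit, eBayes): 12 group means, 24 residual degrees of freedom, 21 comparisons, each adjusted by Benjamini-Hochberg over all probe sets and called under 0.05. Intervals are 95% from the moderated fit. Results were tabulated with Python 3.11.15, pandas 2.3.3 and numpy 2.4.6. The fit with group means alone was tested on simulated data that held no effect of array number. The block fit was not tested in this way.

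The fit with array number as a block (22 residual degrees of freedom) is printed too for every comparison. A comparison passed the pairing check where deviations from group means correlated over 0.1 for every same-numbered pair. FSH against cAMP without HPTE and the interactions of cAMP cells with basal and with FSH cells did not pass. No such check is given without the arrays numbered 2 of FSH and of cAMP alone. Over all 66 pairs of groups, the lowest and median correlations were -0.01 and 0.40 for number 1, -0.12 and 0.37 for number 2, and 0.28 and 0.78 for number 3. The pairing comes from the numbers in the sample titles. These correlations cannot show it, because the shift of number 3 can by itself make numbers 1 and 2 deviate alike.

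Names came from the platform table, in which 20826 probe sets had 1 symbol, 436 several and 9780 none. Of the members, 7 had several probe sets. Single-array values are given for Psmb5, Psmb7, Psmd14 and Psmd4, and by rule for up to 4 called members in each direction in 5 main comparisons; any member may be named. Marker lists and the other genes of the pathway were written out as lists. The members, lists and tests were chosen with earlier results of these data known. Alternatives covered normalization, centring, a low-level filter, the groups in the fit, probe set type, the block and arrays left out.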

Additional observations from a re-analysis of the deposited data

Results flagged for a closer look

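The effect of 10 µM HPTE on Psma3, an alpha ring gene of the core particle, differed between FSH and basal cells by a test of the difference itself: the interaction was -0.67 log2 units with array number as a block (adjusted p = 0.018, limma). It was not called with group means alone. With the block, the call held in 9 of 12 fits that left out 1 array. It was the 1 call of 33 genes, where 6.77% of all probe sets were called.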

How the results depend on the processing

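Of 315 counts recomputed over the 21 comparisons, 291 kept their value within 1.5 times and 24 moved, always from 0 of 33 genes called. Quantile normalization, centring, leaving out the lowest 25% of probe sets, fitting the compared groups alone, plain probe sets only and leaving out the arrays numbered 3 moved no count. With the replicate block the counts were 2 (FSH against basal), 2 (cAMP against basal), 2 and 4 (5 and 10 µM HPTE in FSH cells), 2 (FSH against basal at 1 µM), 2, 2 and 1 (cAMP against basal at 1, 5 and 10 µM) and 1 (interaction of FSH with basal cells); the block changed no other call. Without number 2 of FSH and cAMP alone they were 1 (cAMP against basal), 2 (10 µM in cAMP cells), 1 (FSH against cAMP) and 2 (interaction of FSH with cAMP cells). Leaving out 1 array gave 0 to 1 for cAMP against basal and 0 to 2 for 10 µM in cAMP cells, the higher value without cAMP array 2, and 0 elsewhere. The block without both libraries, chosen after seeing the data, gave 4 (FSH against basal, 16.0% of probe sets called), 6 (cAMP against basal, 17.3%), 2 and 6 (5 and 10 µM in FSH cells, 14.0% and 16.3%), 2 (10 µM in cAMP cells, 9.23%), 7 (FSH against cAMP, 7.91%), and 2, 1 and 8 (interactions of FSH with basal, cAMP with basal and FSH with cAMP cells, 8.63%, 1.7% and 9.85%). Without the block, the direction turned in 3 cases: over fits with 1 array left out, Psmd8 at 5 µM in FSH cells ran from -0.09 (without array 3 at 5 µM) to 1.23, Psma7 at 10 µM in FSH cells from -0.57 to 0.03 (without FSH array 3), and Psmd8 with FSH at 1 µM from -1.32 to 0.05 (without basal array 3). The cause was not tested. Precision is limited by 3 arrays a group: the 95% interval of a member reached a median of 0.48 log2 units to either side of the difference in single contrasts, and 0.26 with the block.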
